A study of Glycine max with 18 samples.

Results

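Cytochrome P450 enzymes are heme proteins that insert an oxygen atom into small molecules. Plants carry very large families of them, named by a family number, a subfamily letter and a gene number, and use them to build flavonoids, isoflavonoids, triterpenes, cutin and suberin, to make and inactivate hormones, and to produce defence compounds. In legume roots the best known members work in isoflavonoid, phytoalexin and saponin synthesis, and those of the CYP707A subfamily break down abscisic acid (ABA), the hormone of water deficit.

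The probes described here were found in 2 ways among the 66195 probes of a soybean GeneChip. A probe entered by its symbol when the array annotation gave it a single gene symbol beginning with CYP, which held for 10 probes. Another 27 probes entered by name because the description or the best Arabidopsis match in the study's supplementary tables contained the words cytochrome P450. No probe entered in both ways, so that 37 of 66195 probes are covered.

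The array values came from roots of 2 soybean cultivars, both 14 d old when dehydration began. DT2008 is a drought-tolerant cultivar and Williams 82 (W82) a drought-sensitive one. Plants were lifted out of vermiculite and left to dry on filter paper for 0, 2 or 10 h, giving the groups DT-C, DT-D2 and DT-D10 for DT2008 and W-C, W-D2 and W-D10 for W82. Each of the 6 groups had 3 arrays of independent biological repeats. No plants were kept well-watered for 2 or 10 h, so that time since the start and dehydration cannot be told apart.

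Each value is a log2 signal taken against the median of its probe across all 18 arrays, so that a value of 1 stands 2-fold above that median. Abundance is therefore not in the values, and the level of one gene cannot be set against that of another. A change is a difference of group means on this log2 scale, given with the standard error (SE) of a limma fit to all arrays. Calls required at least a 2-fold change together with an adjusted p under 0.05 (Benjamini-Hochberg, all probes).

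The 2 sets of probes are kept apart because 26 of the 27 table-named probes stood in tables of genes that the study had selected on these same arrays. The selecting comparisons of those probes are given as values without a test. A table-named probe was tested only in comparisons whose means used none of the groups on which it had been selected. The SE came from all arrays, so the spread within the selecting groups still entered each SE and p. For Glyma.13G068800 the standard deviation (SD) was 0.77 in DT-C and 0.37 in DT-D2. In its selecting groups the SD was 0.19 in W-C, 0.14 in W-D2 and 0.34 in W-D10. In a fit of the groups compared alone, the only table-named call lost was Glyma.05G220500 in DT-D10/W-D10 (adjusted p = 0.0738). For the tables used here the lists are partly shortened, so that the balance of increases and decreases among table-named probes is not a result. Closest to the study's 2-fold limit in its selecting comparison was Glyma.03G122300, at -1.02 in DT-D10/DT-C, while Glyma.01G153300, at -0.996 in the same comparison, was not selected there.

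**Figure D1:**
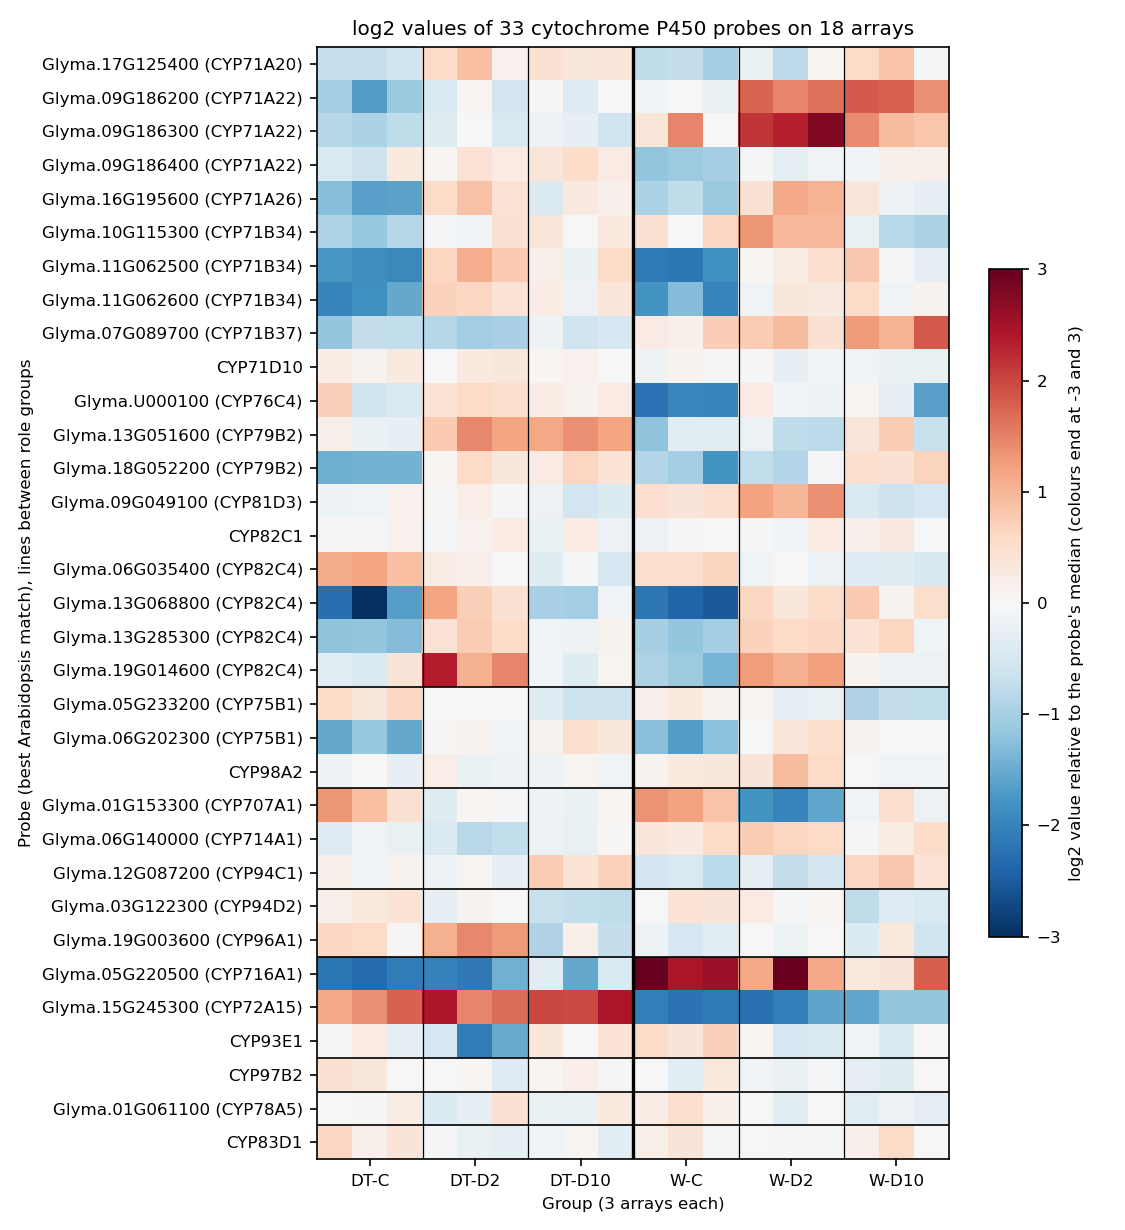
Colours give the log2 value, relative to the median of each probe, of 33 cytochrome P450 probes (rows, with the best Arabidopsis match in brackets) on 18 arrays (columns, 3 per group, DT2008 on the left and W82 on the right). The rows of Glyma.15G245300 and Glyma.05G220500 differ in colour between the cultivars, while those of Glyma.11G062500 and Glyma.11G062600 are low in both control groups.

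Arrays of one group correlated at between 0.369 in W-D10 and 0.721 in W-C over the centred probes, and array medians lay between -0.019 and 0.018. Root identity could not be checked from values that hold no brightness. The summed log2 values of 2 shoot markers, CAB3 and PSAD, lay between 0.67 and 1.15 in DT-C, between 0.56 and 1.42 in DT-D2 and between -0.59 and -0.28 in DT-D10, and between -0.79 and -0.01 in W-C, between -0.59 and 0.11 in W-D2 and between -1.82 and -0.43 in W-D10. Of 4 nodule markers, ENOD93 fell by 2.49 in W-D10 relative to W-C. ENOD40B, ENOD55-1 and NOD33 changed by 0.02, 0.23 and 0.06 in that comparison, without a call. Before dehydration ENOD93 was called 1.80 lower in DT-C than in W-C (change -1.80), ENOD40B was called 1.04 higher (adjusted p = 0.049), and NOD33 and ENOD55-1 changed by 0.49 and -0.04 without a call. Over the 4 nodule markers the arrays summed to between 0.34 and 1.68 for DT-C, -1.02 and 0.55 for DT-D2, and -1.12 and 0.35 for DT-D10. The W82 sums lay between 0.47 and 2.78 for W-C, -0.78 and 0.27 for W-D2, and -0.97 and -0.29 for W-D10. The part of shoot or nodule tissue in the results below was not tested, and in whole roots fewer cells of a type and less RNA per cell cannot be told apart.

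Of the 10 probes with a CYP symbol, 6 have a name of the P450 form, namely CYP71D10, CYP82C1, CYP83D1, CYP93E1, CYP97B2 and CYP98A2. The other 4, CYP11, CYP21, CYP24 and CYP42, carry a plain number without a subfamily letter. Soybean cyclophilins, which are protein-folding enzymes, are given symbols of that form, and no description of these 4 probes was at hand. They are therefore counted with the set but not described as P450 genes.

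None of these probes had been selected on the arrays, and a single one passed both thresholds anywhere. CYP93E1, which encodes a β-amyrin 24-hydroxylase of soyasaponin synthesis in soybean, was downregulated after 2 h in DT2008. Its values were 0.03, 0.25 and -0.26 in DT-C, -0.51, -2.11 and -1.51 in DT-D2, and 0.35, 0.01 and 0.41 in DT-D10. The W82 arrays gave 0.58, 0.39 and 0.71 in W-C, 0.08, -0.50 and -0.45 in W-D2, and -0.10, -0.40 and -0.01 in W-D10. All 3 DT-D2 arrays lay below every other DT2008 array, and they spread far more than those of any other group.

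In DT-D2/DT-C the change of CYP93E1 was -1.38 (SE 0.28, adjusted p = 0.00257), 2.60-fold lower in dehydrated roots. It then rose by 1.63 in DT-D10 relative to DT-D2 (SE 0.28, adjusted p = 0.00144). DT-D2 also lay 1.09 below W-D2 (SE 0.28, adjusted p = 0.0135), a difference of -0.72 with adjusted p = 0.094 without DT-D2 replicate 2 and no longer called either without DT-D2 replicate 3 (-1.02, adjusted p = 0.0539) or without W-D2 replicate 1 (-0.90, adjusted p = 0.0669). In W82 the changes were -0.85 after 2 h (adjusted p = 0.0743) and -0.73 after 10 h (adjusted p = 0.0869), short of the threshold. The dehydration responses of the cultivars at 2 h were not distinguishable for CYP93E1 (interaction -0.53, SE 0.40, adjusted p = 0.656).

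By comparison, the symbol-named set gave 1 call of 10 in DT-D2/DT-C, where 4.07% of all probes were called. It also gave 1 of 10 in DT-D2/W-D2 (4.21% of all probes) and 1 of 10 in DT-D10/DT-D2 (2.23%), each of them CYP93E1. With limma 0 of 10 were called in W-D2/W-C (2.71% of all probes), W-D10/W-C (5.15%), DT-D10/DT-C (4.46%), DT-C/W-C (3.5%), DT-D10/W-D10 (1.73%) and W-D10/W-D2 (2.44%). At an unadjusted p under 0.05 there were 2, 1, 2, 2, 2 and 1 of 10 in these 6 comparisons. The share of all probes at that looser threshold was not counted, so these numbers have no background. The methods' t-test called 0 of 10 in each of the 9 comparisons between groups. Neither interaction gave a limma call among the 10, where 0.42% and 0.394% of all probes were called at 2 h and 10 h. At an unadjusted p under 0.05 there were 0 and 2 of the 10, again without a share of all probes.

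Smaller differences passed the adjusted p without reaching 2-fold. With the adjusted p as the only threshold, 3 of 10 passed in DT-D2/DT-C (12.1% of all probes), 4 in DT-D2/W-D2 (14.3%), 3 in DT-D10/DT-D2 (7.72%) and 1 in W-D10/W-D2 (9.09%). CYP98A2, whose subfamily hydroxylates coumaroyl esters on the phenylpropanoid route to lignin, had 0.20, -0.19 and -0.15 in DT-D2 and 0.39, 0.96 and 0.60 in W-D2. This was 0.70 lower in DT-D2 (change -0.70, SE 0.15, adjusted p = 0.00454), without overlap of the arrays. In W82 the same transcript fell by 0.71 between 2 and 10 h (SE 0.15, adjusted p = 0.00568). CYP83D1 had -0.07, -0.22 and -0.29 in DT-D2 and 0.62, 0.14 and 0.39 in DT-C, a change of -0.58 (SE 0.17, adjusted p = 0.0309). CYP71D10, CYP82C1 and CYP97B2, the last a relative of carotenoid hydroxylases, passed neither threshold in any of the 11 comparisons.

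Among the plain-number symbols, CYP24 fell by 0.60 in DT-D2/DT-C (SE 0.18, adjusted p = 0.039) and rose by 0.87 in DT-D10/DT-D2 (SE 0.18, adjusted p = 0.00587). It was also 0.74 lower in DT-D2 than in W-D2 (change -0.74, adjusted p = 0.0108). CYP11 was lower by a difference of -0.59 in DT-D2/W-D2 (adjusted p = 0.0436) and rose by 0.66 in DT-D10/DT-D2 (adjusted p = 0.0394). CYP21 and CYP42 passed no threshold.

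**Figure D2:**
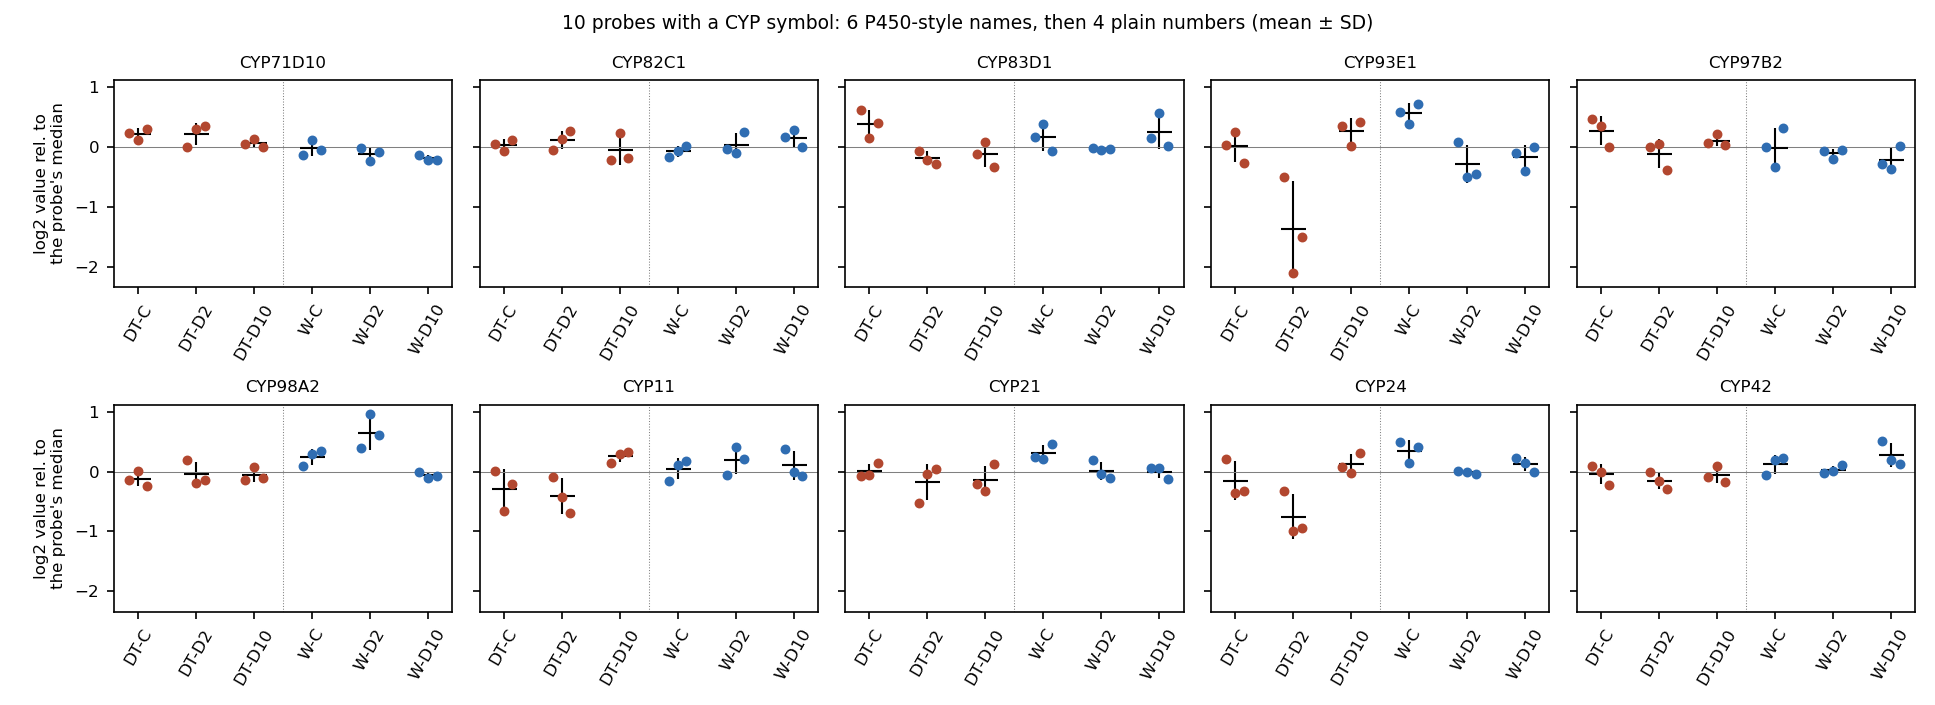
Points are the log2 values, relative to the median of each probe, of the 10 probes with a CYP symbol on each array (DT2008 red, W82 blue, 0, 2 and 10 h from left to right), and bars are the mean and SD of 3 arrays. CYP93E1 in DT-D2 reaches down to -2.11, and CYP71D10 and CYP82C1 stay near 0 in all 6 groups.

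The 27 table-named probes were spread over the genome and over the family. The names of 26 of them place them on 15 chromosomes, and 3 pairs are consecutive gene numbers, on chromosomes 9 and 11. Their best Arabidopsis matches were 18 genes of 15 subfamilies. Probes that matched CYP71, CYP76, CYP79, CYP81 or CYP82, subfamilies known mostly for defence compounds and detoxification, made up 17 of the 27. These matches name the nearest Arabidopsis gene and do not show that the soybean enzyme does the same reaction.

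**Figure D3:**
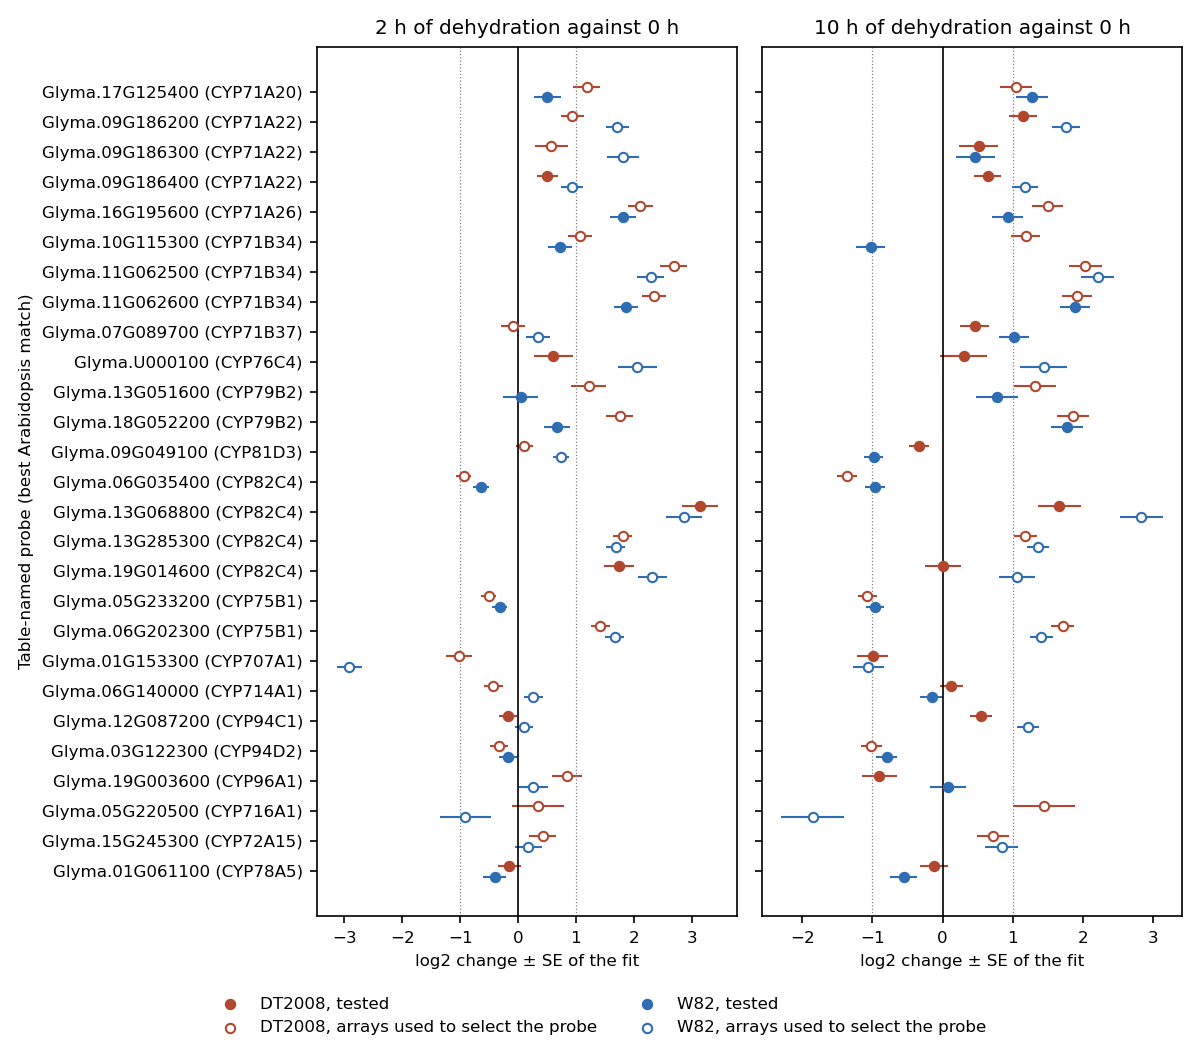
Each row is a table-named probe, and points give the log2 change after 2 h (left) and 10 h (right) of dehydration against 0 h with the SE of the fit, DT2008 in red above W82 in blue. Filled points were tested, open points rest on arrays that the study used to select the probe, and dotted lines mark a 2-fold change. Glyma.13G068800 lies beyond 2-fold in both cultivars at both times, and Glyma.10G115300 lies on opposite sides of 0 at 10 h.

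The 4 probes whose best match was CYP82C4, in Arabidopsis a hydroxylase of coumarin synthesis, gave the largest tested increase of the set. The table described Glyma.13G068800 as nearly identical to soybean CYP82A3, and both W82 responses had selected it. In DT2008, whose arrays were not used for its selection, it had -2.26, -3.18 and -1.65 in DT-C, 1.19, 0.71 and 0.46 in DT-D2, and -0.96, -1.02 and -0.11 in DT-D10. Its W82 values were -2.16, -2.41 and -2.53 in W-C, 0.61, 0.34 and 0.55 in W-D2, and 0.78, 0.11 and 0.52 in W-D10.

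All dehydrated DT2008 arrays thus lay above all 3 controls for Glyma.13G068800. The DT2008 response was an increase of 3.15 after 2 h (SE 0.31, adjusted p = 1.33e-06), 8.87-fold, and of 1.66 after 10 h (SE 0.31, adjusted p = 0.00103). After quantile normalization the 10 h increase was 1.05 and still called. Between 2 and 10 h it fell by 1.48 in DT2008 (SE 0.31, adjusted p = 0.00555). The W82 means of 0.50 ± 0.14 in W-D2 and 0.47 ± 0.34 in W-D10 (SD, n = 3) differed by -0.03, a comparison of selecting arrays and not tested.

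Glyma.19G014600, highly similar to CYP82A3 and selected in W-D2/W-C, peaked at 2 h in DT2008 as well. It had -0.31, -0.46 and 0.38 in DT-C, 2.34, 1.06 and 1.47 in DT-D2, and -0.08, -0.37 and 0.08 in DT-D10, so that the DT-D10 arrays overlapped the controls. DT2008 gave an increase of 1.75 after 2 h (SE 0.26, adjusted p = 0.000134) and a decrease of 1.75 between 2 and 10 h (change -1.75, SE 0.26, adjusted p = 0.000446). At 10 h the difference from DT-C was 0.01, with a 95% interval from -0.54 to 0.55. W82 had -0.93, -1.10 and -1.39 in W-C, 1.25, 1.07 and 1.23 in W-D2, and 0.11, -0.18 and -0.17 in W-D10, where every W-D10 array still lay above the W-C arrays.

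Glyma.13G285300, described as nearly identical to soybean CYP82A2, was listed in both cultivars and could not be tested on arrays apart from its selection. Its means were -1.23 ± 0.05 in DT-C, 0.58 ± 0.16 in DT-D2 and -0.05 ± 0.13 in DT-D10, and -1.05 ± 0.09 in W-C, 0.63 ± 0.06 in W-D2 and 0.31 ± 0.39 in W-D10 (SD, n = 3). The fourth probe, Glyma.06G035400, moved the other way. It was selected as lower in DT-D10/DT-C, at -1.36, and in W82 it fell by 0.64 after 2 h (SE 0.14, adjusted p = 0.00632) and by 0.96 after 10 h (SE 0.14, adjusted p = 6.83e-05), neither reaching 2-fold. Its W82 arrays gave 0.48, 0.52 and 0.66 in W-C, -0.10, 0.02 and -0.18 in W-D2, and -0.39, -0.37 and -0.48 in W-D10.

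**Figure D4:**
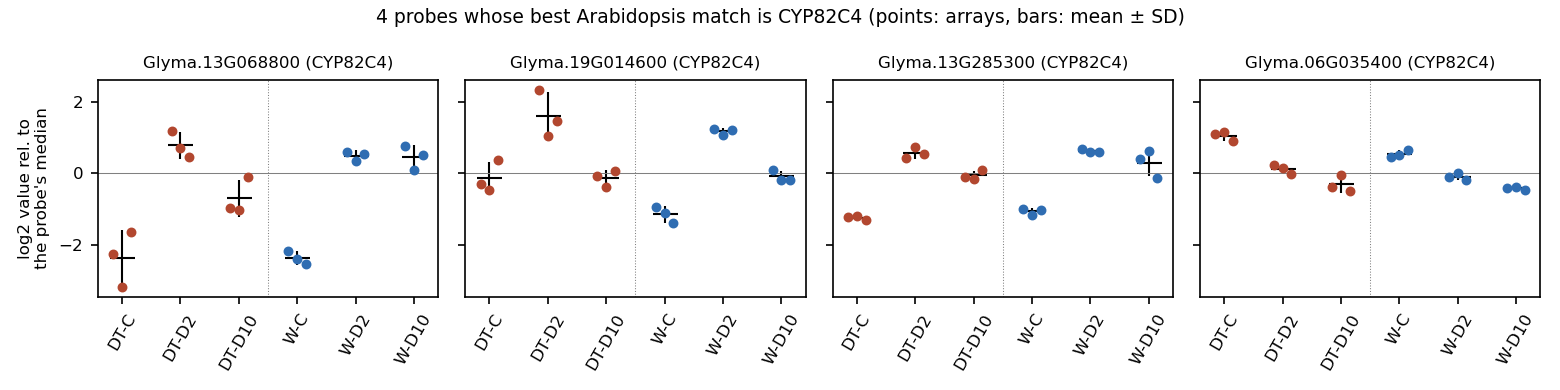
Points are log2 values on each array, relative to the median of each probe, for the 4 probes that match CYP82C4 (DT2008 red, W82 blue, 0, 2 and 10 h from left to right), with mean and SD of 3 arrays as bars. Glyma.13G068800 is below -1.6 on all 6 control arrays, Glyma.19G014600 peaks at 2 h, and Glyma.06G035400 is highest in the controls.

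A tandem pair on chromosome 11, Glyma.11G062500 and Glyma.11G062600, matched CYP71B34 and was described as highly similar to soybean CYP71D8, one of the P450 genes that, like CYP82A2 and CYP82A3, were first isolated from elicitor-treated soybean cells. Both were low in the controls and higher after dehydration in either cultivar. Glyma.11G062600 had been selected in DT2008 alone, at 2.35 and 1.92 after 2 and 10 h. In W82 it had -1.79, -1.30 and -2.01 in W-C, -0.11, 0.34 and 0.26 in W-D2, and 0.57, -0.10 and 0.10 in W-D10. It rose by 1.86 after 2 h (SE 0.21, adjusted p = 1.14e-05) and by 1.89 after 10 h (SE 0.21, adjusted p = 4.01e-06).

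Glyma.11G062500 was listed in both cultivars. It had -1.75, -1.86 and -1.94 in DT-C, 0.64, 1.10 and 0.79 in DT-D2, and 0.17, -0.21 and 0.58 in DT-D10, and in W82 -2.13, -2.16 and -1.83 in W-C, 0.05, 0.21 and 0.49 in W-D2, and 0.81, -0.05 and -0.24 in W-D10. In both cultivars no dehydrated array overlapped the controls. The 2 genes are neighbours with the same best match, and whether either probe takes up signal from the other gene was not tested.

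The remaining match to CYP71B34, Glyma.10G115300, was selected as higher in DT-D10/DT-C and was lower in W82 at 10 h. It had -0.92, -1.13 and -0.85 in DT-C, -0.06, -0.09 and 0.47 in DT-D2, and 0.36, 0.00 and 0.30 in DT-D10. W82 had 0.46, 0.00 and 0.62 in W-C, 1.32, 0.98 and 0.97 in W-D2, and -0.22, -0.83 and -0.95 in W-D10. In W82 its decrease of 1.76 between 2 and 10 h was called (change -1.76, SE 0.21, adjusted p = 4.21e-05). So was its decrease of 1.03 in W-D10/W-C (change -1.03, SE 0.21, adjusted p = 0.00199), which was no longer 2-fold without W-C replicate 1 (-0.97) or 3 (-0.90) or without W-D10 replicate 2 (-0.94) or 3 (-0.88).

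Other members of the CYP71 group gave increases in the cultivar that had not selected them. Glyma.16G195600, a match to CYP71A26, was selected in DT-D2/DT-C at 2.12. In W82 its values were -0.95, -0.75 and -1.11 in W-C, 0.46, 1.13 and 1.04 in W-D2, and 0.37, -0.16 and -0.23 in W-D10. It rose by 1.82 after 2 h (SE 0.22, adjusted p = 2.47e-05), and the increase of 0.93 after 10 h (SE 0.22, adjusted p = 0.006) stayed under 2-fold. Glyma.17G125400, a match to CYP71A20 selected in DT-D10/DT-C at 1.05, rose by 1.28 in W-D10/W-C (SE 0.23, adjusted p = 0.000638) and stood at 0.51 in W-D2/W-C.

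CYP79B2 makes indole-3-acetaldoxime from tryptophan in Arabidopsis, and 2 probes matched it. Glyma.18G052200 was selected in DT-D10/DT-C and had -1.46, -1.41 and -1.41 in DT-C, 0.05, 0.60 and 0.34 in DT-D2, and 0.25, 0.64 and 0.41 in DT-D10. In W82 it had -0.87, -1.01 and -1.80 in W-C, -0.73, -0.87 and -0.05 in W-D2, and 0.51, 0.47 and 0.66 in W-D10. No dehydrated W82 array lay below a W82 control, but the lowest array at 2 h was level with the highest control to 2 decimals. The W82 increase was 1.78 after 10 h (SE 0.23, adjusted p = 2.21e-05), against 0.68 after 2 h, and the increase of 1.10 in W-D10/W-D2 was called as well (SE 0.23, adjusted p = 0.00455) but measured 0.94 without W-D2 replicate 2. DT-D2 lay 0.88 above W-D2 (SE 0.23, adjusted p = 0.0138), under 2-fold.

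Glyma.13G051600, the other match to CYP79B2, was also selected in DT-D10/DT-C. At 2 h it had 0.77, 1.45 and 1.19 in DT-D2 and -0.19, -0.75 and -0.79 in W-D2, with no overlap. DT2008 was higher by 1.71 (SE 0.30, adjusted p = 0.000841), 3.28-fold. Its W82 response at 10 h was 0.77 and not called, with W-D10 arrays as far apart as 0.75 and -0.67.

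A run of 3 consecutive gene numbers on chromosome 9, Glyma.09G186200, Glyma.09G186300 and Glyma.09G186400, all matched CYP71A22. Their means did not place the cultivars in the same order, though Glyma.09G186400 had no tested call between cultivars. For Glyma.09G186200, selected in both W82 responses and in DT-D2/W-D2, the arrays gave -0.99, -1.68 and -1.10 in DT-C, -0.45, 0.06 and -0.57 in DT-D2, and 0.05, -0.38 and 0.02 in DT-D10. W82 had -0.08, -0.02 and -0.20 in W-C, 1.74, 1.46 and 1.64 in W-D2, and 1.84, 1.77 and 1.38 in W-D10. DT2008 lay below W82 at each of the 3 times. Its DT2008 response at 10 h compared groups apart from the selection. It was an increase of 1.15 (SE 0.20, adjusted p = 0.000527), which measured 0.94 without DT-C replicate 2 and 0.90 after quantile normalization.

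Glyma.09G186300, selected in DT-D2/W-D2, had -0.85, -0.95 and -0.75 in DT-C, -0.37, 0.01 and -0.45 in DT-D2, and -0.16, -0.24 and -0.60 in DT-D10, and 0.35, 1.46 and -0.01 in W-C, 2.16, 2.32 and 2.77 in W-D2, and 1.42, 0.94 and 0.84 in W-D10. It was lower in DT2008 before dehydration (DT-C/W-C -1.45, SE 0.28, adjusted p = 0.00182) and after 10 h (DT-D10/W-D10 -1.40, SE 0.28, adjusted p = 0.00482). Glyma.09G186400, selected in W-D10/W-C, had means that stood the other way round. Its means were -0.26 ± 0.48 in DT-C and -1.09 ± 0.10 in W-C, and 0.25 ± 0.18 in DT-D2 and -0.15 ± 0.12 in W-D2 (SD, n = 3). The difference before dehydration rests on W-C, a group of its selection, and was not tested. At 2 h the difference of 0.40 was not called (SE 0.19, adjusted p = 0.171). In DT2008 its increase of 0.64 after 10 h passed the adjusted p alone (SE 0.19, adjusted p = 0.0271).

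Differences in signal between cultivars at every time were the main feature of 3 further probes. Whether each probe takes up the transcripts of both cultivars equally was not tested. Glyma.15G245300, a match to CYP72A15, was selected in all 3 cultivar comparisons. It had 1.15, 1.36 and 1.76 in DT-C, 2.42, 1.46 and 1.69 in DT-D2, and 2.01, 1.98 and 2.45 in DT-D10, against -2.08, -2.22 and -2.12 in W-C, -2.24, -2.07 and -1.57 in W-D2, and -1.56, -1.17 and -1.15 in W-D10. These are gaps of 3.56, 3.82 and 3.44 at 0, 2 and 10 h, the largest 14.1-fold, and no DT2008 array came near a W82 array. CYP72A enzymes act on triterpenes in legumes and on gibberellins and other substrates elsewhere.

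Glyma.05G220500, a match to CYP716A1 of a subfamily that oxidizes triterpene skeletons, ran the opposite way and was selected in DT-C/W-C alone. It had -2.19, -2.34 and -2.10 in DT-C, -2.02, -2.14 and -1.43 in DT-D2, and -0.31, -1.53 and -0.45 in DT-D10. W82 had 3.01, 2.46 and 2.57 in W-C, 1.15, 3.02 and 1.15 in W-D2, and 0.31, 0.39 and 1.78 in W-D10. The gap of -4.89 in the controls was thus followed by one of -3.64 at 2 h (SE 0.44, adjusted p = 2.52e-05), 12.4-fold lower in DT2008, and of -1.59 at 10 h (SE 0.44, adjusted p = 0.0451). The 10 h call was marginal, with adjusted p = 0.211 without DT-D10 replicate 2, 0.172 without W-D10 replicate 3, up to 0.0668 without other single arrays and 0.0738 in a fit of those groups alone.

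Within each cultivar the values of Glyma.05G220500 moved toward each other, at 1.45 in DT-D10/DT-C and -1.85 in W-D10/W-C, both of which share a control group with its selection and were not tested. After quantile normalization the DT2008 value was 0.83. Neither step between 2 and 10 h was called, at 1.10 in DT2008 (SE 0.44, adjusted p = 0.152) and -0.95 in W82 (SE 0.44, adjusted p = 0.219).

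Glyma.07G089700, a match to CYP71B37 selected in DT-D2/W-D2, was lower in DT2008 at the other times too. It had -1.17, -0.70 and -0.75 in DT-C and 0.24, 0.15 and 0.74 in W-C (change -1.25, SE 0.21, adjusted p = 0.000614), and -0.15, -0.60 and -0.50 in DT-D10 and 1.28, 1.04 and 1.85 in W-D10 (change -1.81, SE 0.21, adjusted p = 2.38e-05). No array of one cultivar reached the range of the other in either comparison. In W82 it rose by 1.02 after 10 h (SE 0.21, adjusted p = 0.00234), a call at the edge of 2-fold that ended at 0.79 without W-D10 replicate 3, at 0.95 and 0.90 without W-C replicates 1 and 2 and at 0.98 after quantile normalization. Beside these cultivar differences, the summed shoot markers were above W-C in DT-C, as given above.

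**Figure D5:**
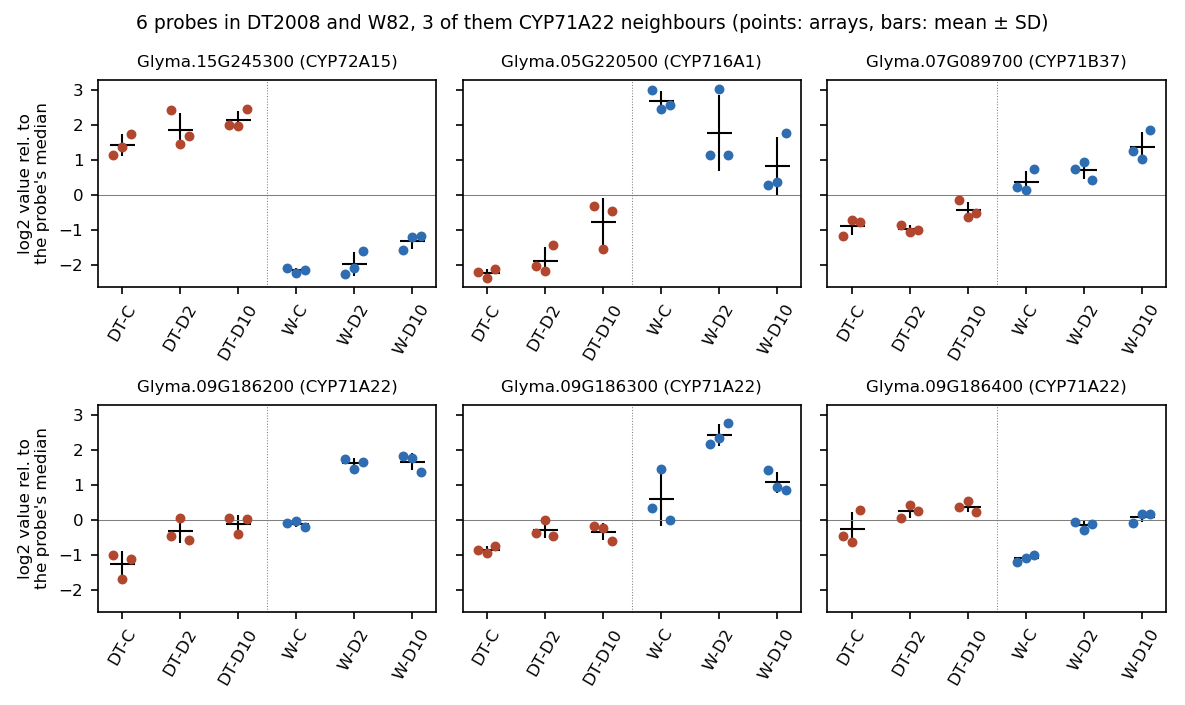
Points are log2 values on each array, relative to the median of each probe, for 6 table-named probes (DT2008 red, W82 blue, 0, 2 and 10 h from left to right), with mean and SD of 3 arrays as bars. Glyma.15G245300 is above 1 on every DT2008 array and below -1 on every W82 array, and Glyma.05G220500 is below 0 on every DT2008 array and above 0 on every W82 array.

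Among the hormone P450 genes, Glyma.01G153300 matched CYP707A1, the ABA 8'-hydroxylase that starts ABA breakdown. It was selected in W-D2/W-C and DT-D2/W-D2. Its values were 1.33, 0.89 and 0.46 in DT-C, -0.37, 0.06 and -0.05 in DT-D2, and -0.15, -0.20 and 0.05 in DT-D10, against 1.35, 1.20 and 0.86 in W-C, -1.78, -2.01 and -1.55 in W-D2, and -0.12, 0.52 and -0.19 in W-D10. All dehydrated arrays lay below the controls of their cultivar, and those of W-D2 were the lowest of all.

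The decrease of Glyma.01G153300 in DT-D10/DT-C, between groups apart from its selection, was 0.996 (change -0.996, SE 0.22, adjusted p = 0.00442), just short of 2-fold. At 10 h the cultivars differed by -0.17 (95% interval -0.64 to 0.29, adjusted p = 0.763). Glyma.12G087200, a match to CYP94C1 of jasmonate breakdown, was selected in W-D10/W-C at 1.22. In DT2008 it stood at -0.17 after 2 h and rose by 0.55 after 10 h (SE 0.16, adjusted p = 0.025), under 2-fold. Glyma.06G140000, a match to the gibberellin-inactivating CYP714A1, was selected in DT-D2/W-D2 at -1.34 and was already lower in DT-C than in W-C (change -0.65, SE 0.16, adjusted p = 0.0116).

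For flavonoids, Glyma.06G202300 matched CYP75B1, the flavonoid 3'-hydroxylase of Arabidopsis, and was listed in both cultivars at 10 h. It had -1.54, -1.14 and -1.53 in DT-C, 0.03, 0.10 and -0.08 in DT-D2, and 0.10, 0.48 and 0.35 in DT-D10, and -1.24, -1.67 and -1.22 in W-C, 0.00, 0.37 and 0.51 in W-D2, and 0.10, 0.00 and -0.01 in W-D10. Every dehydrated array was above every control array of either cultivar. The description of Glyma.05G233200 named CYP71A22 while its best match was CYP75B1. It was selected as lower in DT-D10/DT-C and fell by 0.96 in W-D10/W-C (SE 0.13, adjusted p = 5.41e-05), under 2-fold.

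The 2 probes with matches among fatty acid hydroxylases gave no tested call. Glyma.03G122300, a match to CYP94D2, fell by 0.80 in W-D10/W-C (SE 0.15, adjusted p = 0.00104). Glyma.19G003600, a match to CYP96A1 selected in DT-D2/W-D2, fell by 0.90 in DT-D10/DT-C (SE 0.25, adjusted p = 0.0224). Its DT2008 arrays were 0.63, 0.59 and 0.03 in DT-C, 1.07, 1.43 and 1.28 in DT-D2, and -0.91, 0.16 and -0.71 in DT-D10, so that the 2 h arrays were the highest and the 10 h arrays overlapped the controls in part.

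Glyma.09G049100, a match to CYP81D3 selected in DT-D2/W-D2, had 0.49, 0.38 and 0.47 in W-C, 1.20, 1.00 and 1.38 in W-D2, and -0.47, -0.63 and -0.50 in W-D10. It fell by 0.98 in W-D10/W-C (SE 0.14, adjusted p = 6.48e-05), just under 2-fold, and the W82 arrays of the 3 times did not overlap. Glyma.U000100, a match to CYP76C4 that sits on no named chromosome, was selected in W-D2/W-C at 2.06. Its mean was -0.11 ± 0.72 in DT-C and -2.06 ± 0.14 in W-C (SD, n = 3), and in DT2008 its changes of 0.61 and 0.30 at 2 and 10 h were not called. Its value in W-D10/W-C was 1.44, and 0.75 after quantile normalization. Glyma.01G061100, a match to the growth gene CYP78A5 and the only table-named probe outside every selecting list, was not called in any comparison.

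Counted over comparisons that shared no group with their selection, the table-named probes gave 22 calls in 98 pairs of probe and comparison, 12 higher and 10 lower. By comparison these were 2 of 6 probes in DT-D2/DT-C, 2 of 13 in DT-D10/DT-C, 2 of 10 in W-D2/W-C and 5 of 15 in W-D10/W-C. Between cultivars they were 2 of 6 in DT-C/W-C, 2 of 12 in DT-D2/W-D2 and 3 of 11 in DT-D10/W-D10, and between times 2 of 7 in DT-D10/DT-D2 and 2 of 11 in W-D10/W-D2. Each share was above the share of all probes given beside the same comparison for the symbol-named set. All these probes except Glyma.01G061100 had been listed as changing on other arrays of the series. The excess therefore goes with the selection and is not a test of P450 genes as a family. The interactions could be tested for 1 probe at 2 h and 6 at 10 h, with 0 calls by limma. At an unadjusted p under 0.05 there were 0 and 2, also without a share of all probes.

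The same rule was applied to the dehydration responses across cultivars, and the same limit holds for the shares there. The rule also leaves out probes that the study had listed with the compared arrays. These shares therefore do not measure how far the responses of the cultivars coincide. Of the 9 probes listed as higher in a W82 response, 5 shared no group with DT-D2/DT-C through their selection, and 2 of these were called higher there, while 2.89% of all probes were. Of the 5, 4 were above 0, with a median change of 0.61. In DT-D10/DT-C 2 of 6 such probes were called higher, against 2.75% of all probes, with all 6 above 0 and a median of 0.60. The medians over all probes were -0.02 in both comparisons.

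Of the 9 probes listed as higher in a DT2008 response, 6 had been selected without W82 arrays. Among these 2 were called higher in W-D2/W-C, where 1.83% of all probes were, with all 6 above 0 and a median change of 0.70. In W-D10/W-C 3 of the 6 were called higher (3.49% of all probes) and Glyma.10G115300 was called lower, with a median of 1.10. The 3 probes listed as lower in DT2008 were all below 0 in W82 at both times, with medians of -0.32 and -0.96 and 0 called, where 0.884% and 1.66% of all probes were called lower. At an adjusted p alone, 1 of the 3, Glyma.06G035400, passed at 2 h (7.82% of all probes) and all 3 at 10 h (15.9%).

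P450 enzymes of isoflavonoid synthesis work beside other enzymes of the phenylpropanoid pathway. A list of 26 probes with an array symbol covered that pathway, including the P450 enzymes C4H and isoflavone synthase, together with cytochrome b5, an electron donor to P450s, and the allene oxide synthases of jasmonate synthesis. Of these, 21 had not been selected on the arrays. By limma 2 of 21 were called higher in DT2008 after 2 h (2.89% of all probes) and again 2 after 10 h (2.75%). In the W82 responses 0 of 21 were called at either time (2.71% and 5.15% of all probes called in either direction). The methods' t-test called 0 there too. At an adjusted p alone 3 of 21 passed at 2 h and 5 at 10 h, where 7.82% and 15.9% of all probes did. At an unadjusted p under 0.05 there were 9 at each time, a threshold at which the share of all probes was not counted. In DT-C/W-C 2 were called lower, where 2.07% of all probes were. For the interactions 0 of 21 were called by limma, where 0.42% and 0.394% of all probes were called at 2 h and 10 h. At an unadjusted p under 0.05 there were 3 and 4 of the 21, again without a share of all probes. The calls in each cultivar therefore do not show that the responses of the cultivars differ.

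Among the called members were chalcone isomerase CHI2-A, an enzyme of the flavanone step, and allene oxide synthase AOS2, which is itself a P450 of jasmonate synthesis but carries no CYP symbol here. AOS2 had 0.11, 0.64 and 0.35 in DT-D2 and -0.86, -1.15 and -0.63 in DT-C, an increase of 1.25 (SE 0.18, adjusted p = 0.000138). CHI2-A rose by 1.38 in DT-D2/DT-C (SE 0.35, adjusted p = 0.0138) and by 1.21 in DT-D10/DT-C (SE 0.35, adjusted p = 0.0273). One probe of CHS1, chalcone synthase, rose by 1.02 in DT-D10/DT-C (SE 0.19, adjusted p = 0.00133). In the same comparison another CHS1 probe rose by 0.49 (SE 0.11, adjusted p = 0.00627), under 2-fold. A further CHS1 probe, which W-D2/W-C had selected, rose by 1.03 there (SE 0.17, adjusted p = 0.000416). Before dehydration CHI2-A was lower in DT-C than in W-C (change -1.13, adjusted p = 0.0442). CHI1B2 was lower in DT2008 than in W82 before dehydration (change -1.45, adjusted p = 0.0112) and at 2 h (change -1.91, adjusted p = 0.00132). The 4-coumarate CoA ligase 4CL2 fell by 1.05 in W-D10/W-D2 (SE 0.18, adjusted p = 0.000853).

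Isoflavone synthase and cinnamate 4-hydroxylase are also P450 enzymes without a CYP symbol on this array. IFS2 rose by 0.53 in DT-D2/DT-C (SE 0.13, adjusted p = 0.00918), by 0.43 in W-D2/W-C (SE 0.13, adjusted p = 0.0454) and by 0.42 in W-D10/W-C (SE 0.13, adjusted p = 0.0297), each under 2-fold. Of the 2 probes of IFS1, one fell by 0.75 in W-D10/W-C (SE 0.20, adjusted p = 0.0161) and was lower in DT-C than in W-C (change -0.96, SE 0.20, adjusted p = 0.00416), both under 2-fold. The second IFS1 probe had W82 responses of -0.33 after 2 h and -0.50 after 10 h and passed no threshold. The changes of C4H lay between -0.40 and 0.22 over the 4 dehydration responses and passed no threshold. Of the 2 phenylalanine ammonia-lyase probes that W-D2/W-C had selected, Glyma.03G181600 rose by 1.81 in DT-D2/DT-C (SE 0.23, adjusted p = 3.07e-05). Glyma.03G181700 rose by 1.96 there (SE 0.16, adjusted p = 1.45e-07). The arrays of that comparison had not been used to list them. PAL2.1, a phenylalanine ammonia-lyase probe not selected on the arrays, rose by 0.40 in DT-D2/DT-C (SE 0.14, adjusted p = 0.0691) and passed neither threshold there. In W-D2/W-C PAL2.1 rose by 0.60 (SE 0.14, adjusted p = 0.00894), under 2-fold. Its change in W-D10/W-D2 was -0.46 (SE 0.14, adjusted p = 0.0399), also under 2-fold.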

How the data were processed

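Deposited values were log2 signals of 66195 probes on 18 arrays of a soybean GeneChip, which the authors made with RMA in Affymetrix Expression Console and processed further in GeneSpring 11. No version of the first tool or of RMA is given in the sources used here. Each probe is centred on its median over the arrays, so that the depth of signal behind a value is unknown and the number of arrays limits the precision. No new scaling was applied.

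Group means were fitted to all 18 arrays with limma 3.58.1 in R 4.3.3 (12 residual and 6.28 prior degrees of freedom, median residual SD 0.22). Benjamini-Hochberg adjustment ran over all probes in each of 11 comparisons, 2 of them interactions. The thresholds were an adjusted p of 0.05 and 2-fold. The fit was tested on simulated data. Same-numbered arrays deviated together at correlations of -0.17 to 0.11, so the numbers were not used as pairs.

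Members and lists were chosen with earlier results of these data known. Every table-named probe is named. Arrays are given for those listed for both times or both cultivars, for neighbouring gene numbers, for the CYP707A1 match and for others that the results turned on, chosen after their values were seen. Of the pathway probes not selected on the arrays, those called are named. Columns of the study's own fold changes and q-values in the supplementary tables were not used. Alternatives were the methods' t-test, a fit of the groups compared, a replicate block, median centring, quantile normalization, no fold threshold and leaving out each array. Figures were drawn with Matplotlib 3.10.9 from tables made with pandas 2.3.3 and NumPy 2.4.6.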

Additional observations from a re-analysis of the deposited data

Results flagged for a closer look

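All 37 probes were searched at 2 h and 10 h for opposite responses of the cultivars without overlap. In 3 table-named probes all 3 DT2008 arrays at the time named lay on one side of the DT2008 controls. All 3 W82 arrays of that time lay on the other side of the W82 controls. The share of all probes with this pattern was not counted, so the number found is not a result about the set. For Glyma.05G220500 the DT2008 response at 10 h exceeded the W82 response by 3.30 on the log2 scale. For Glyma.10G115300 the difference of responses at 10 h was 2.21. For Glyma.06G140000 it was -0.69 at 2 h. None of these differences was tested, since each rests on arrays with which the probe had been selected. The nodule marker ENOD93 differed between cultivars in its response at 10 h, with an interaction of 1.95 (SE 0.35, adjusted p = 0.0171), at -0.54 in DT2008 and -2.49 in W82. The other nodule markers, ENOD40B, ENOD55-1 and NOD33, had interactions of -0.63, -0.43 and -0.26 at 10 h, none of them called.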

How the results depend on the processing

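No called change turned its direction under the alternatives that were run. Without a fold threshold the symbol-named calls were 3 in DT-D2/DT-C, 4 in DT-D2/W-D2, 1 in W-D10/W-D2 and 3 in DT-D10/DT-D2, and the table-named calls 43 in place of 22. Counting probes listed by an independent table gave 44, but this takes in probes that the compared arrays had also selected. The methods' t-test with Benjamini-Hochberg adjustment gave 0 in each of the 9 comparisons of groups and 0 for the table-named set, whose count leaves out probes that this t-test had listed in the comparison. In DT-D2/W-D2 the symbol-named call was lost (0) in a fit of those groups alone and after quantile normalization. Leaving out single arrays gave 0 to 1 calls there and 1 to 2 in DT-D10/DT-D2. The replicate numbers did not pair the arrays, and a fit with a replicate block gave 21 table-named calls, having lost Glyma.05G220500 in DT-D10/W-D10 (adjusted p = 0.0596). All 25 tested calls were lost under the methods' t-test, and 6 were lost under another alternative, each named with its values above. Quantile normalization moved 34 of 86 untested values by more than 1 SD. The number of arrays, 3 per group, limits what smaller changes could be called.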
